A study of Mus musculus with 16 samples.

Results

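The splicing factor genes followed here are those whose symbol starts with Hnrnp, or with Srsf, Sf3a, Sf3b or Prpf and a digit. Of 23234 named genes in the expression table, 50 matched: 11 SR proteins, 18 heterogeneous nuclear ribonucleoproteins (hnRNPs), 8 subunits of SF3A and SF3B and 13 PRPF proteins. At least 1 FPKM (a fragment count corrected for transcript length and sequencing depth) was required in at least 2 libraries, and 49 of the 50 passed, as did 11266 genes in all. Srsf12 did not pass, with 0 libraries at 1 FPKM and a range of 0 to 0.212 FPKM, while Prpf40b was the member closest above the limit, with 8 libraries at 1 FPKM and a range of 0.208 to 2.47 FPKM. Hnrpdl and Hnrpll, listed under older hnRNP symbols, fall outside the symbol rule.

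The RNA came from mouse B cells that were responding to the hapten carrier NP-CGG in alum. Naive Bcl6-YFP(KI/+) B1-8hi(KI/+) B cells of C57BL/6 background, which carry a yellow fluorescent reporter at the Bcl6 locus and a knock-in NP-binding heavy chain, were injected into wild-type CD45.1+ recipients. These were immunised i.p., and on day 10 donor cells that were NP-binding, IgG1+ and negative for the plasma cell marker CD138 were sorted from the joined spleen cells of 9 recipients. All 6 groups share this genotype, agent and day, and ages are not given in the sources used here. The transferred cells met the antigen in mice that kept their own B and T cells, so the groups are donor cells within a host response.

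LZ (3 libraries) is the light zone germinal centre gate, CD38- CD86hi CXCR4lo. Fraction 2 (2 libraries) and Fraction 3 (3 libraries) are the Bcl6-YFPhi cells of that gate, split into CD69hi cells, called recycling-prone in the labels, and CD69lo cells, described as under selection. The other gates are CD38+ GL7-. Fraction 5 (3 libraries) is Bcl6-YFPhi Efnb1hi and labelled pro-memory, Fraction 6 (2 libraries) is Bcl6-YFPlo Efnb1hi and labelled pre-memory, and Fraction 7 (3 libraries) is Bcl6-YFPlo Efnb1lo and labelled mature memory. The labels do not say whether libraries of a gate came from separate sorts or mice, so p-values measure the spread between libraries, which may be technical.

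Splicing removes introns from precursor mRNA in the spliceosome, a machine of small nuclear ribonucleoproteins (snRNPs) that assembles anew on each intron. SF3A and SF3B form the part of the U2 snRNP that holds the branch point, and the PRPF proteins act mainly in the U4/U6.U5 particle and in the later remodelling of the spliceosome. SR proteins bind exons and favour their inclusion, whereas hnRNPs coat nascent RNA and often oppose inclusion, so their balance sets alternative splicing. In B cells, activation and growth are known to raise the output of RNA processing factors, and alternative processing also sets the membrane and secreted forms of immunoglobulin.

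Levels of the splicing factor genes were highest in the germinal centre gates and lowest in mature memory cells. In FPKM, their summed level in the libraries of LZ was 5709 to 5843. The 2 libraries of Fraction 2 held 6315 and 6397 and those of Fraction 3 from 5686 to 5742, whereas Fraction 5 held 4148 to 4465, the 2 libraries of Fraction 6 held 3637 and 3812, and Fraction 7 held 3136 to 3524. As a share of all FPKM in the library this was 1.30% ± 0.0107 (SD, n = 2) in Fraction 2, 1.19% ± 0.0176 (SD, n = 3) in LZ and 0.765% ± 0.0147 (SD, n = 3) in Fraction 7. The order of the sums was Fraction 2, then LZ and Fraction 3, whose libraries overlapped, then Fraction 5, Fraction 6 and Fraction 7. Neighbours in that order other than LZ and Fraction 3 did not overlap.

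By gate means, 39 of the 49 genes were highest in Fraction 2 and 38 were lowest in Fraction 7. The mean was lower at each successive step from Fraction 2 through Fractions 3, 5 and 6 to Fraction 7 for 32 genes, while it was higher at each step from Fraction 3 to Fraction 7 for 2, Prpf39 and Prpf40b. These orders were counted for the members only, so how common they are among all genes is not known. The highest gate mean was 2.00 times the lowest for the median member, and ranged from 1.10 times in Prpf38b to 4.52 times in Hnrnpab.

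**Figure D1:**
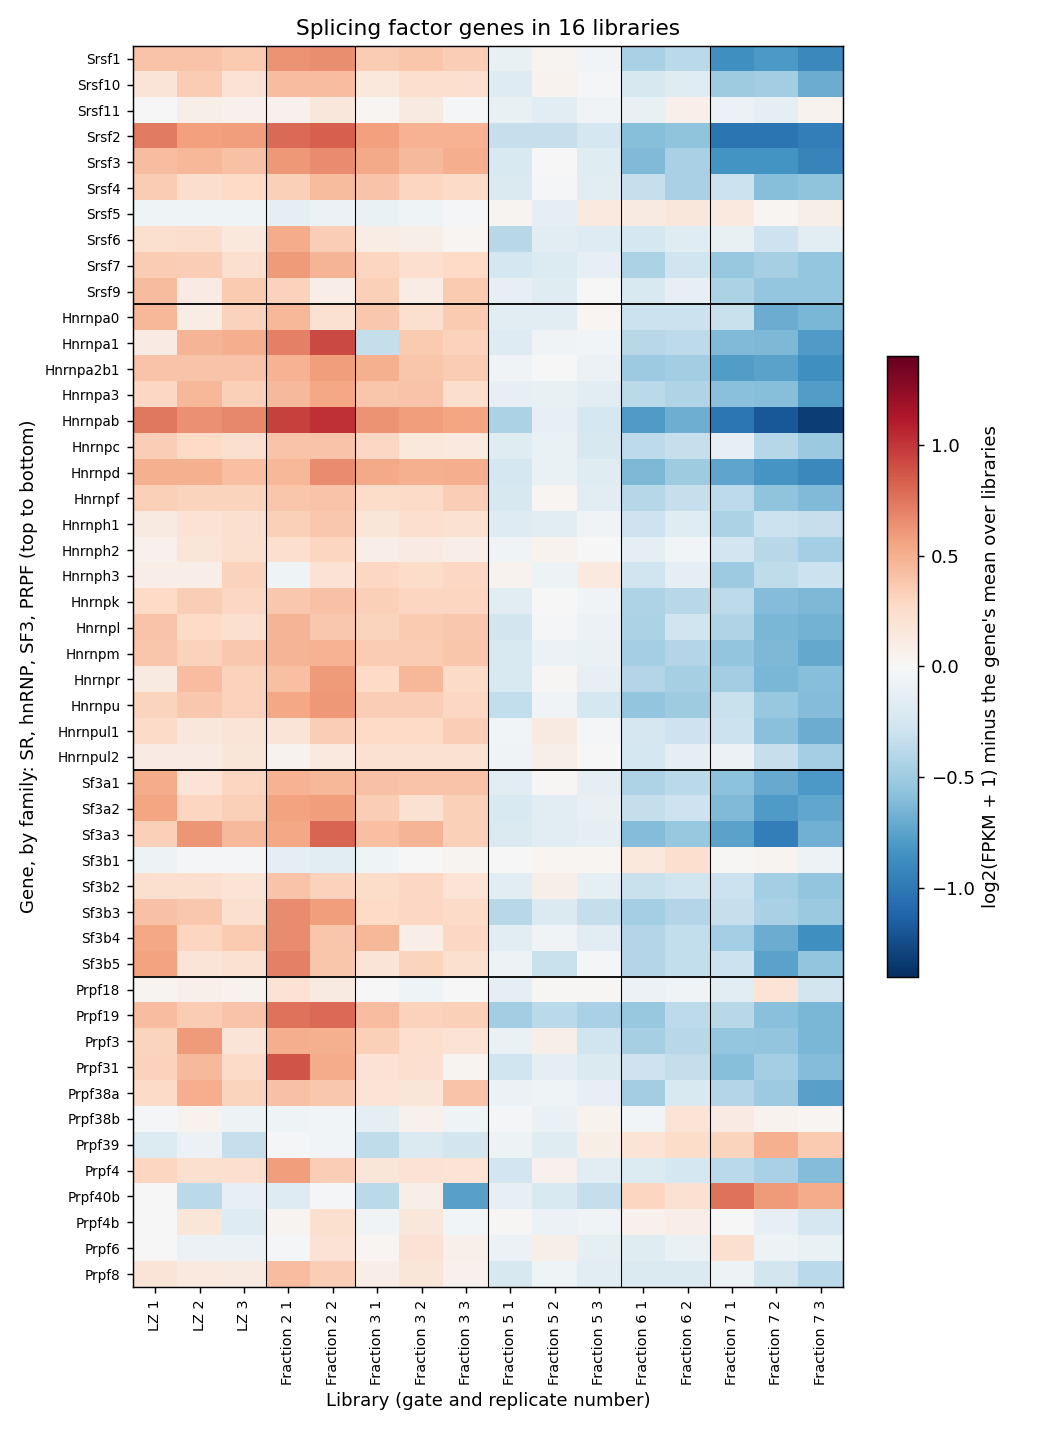
Each row is a gene, 48 of the 49, and each column 1 of the 16 libraries; colour gives log2(FPKM + 1) minus the mean of that gene over the libraries. Most rows run from high in the Fraction 2 columns to low in the Fraction 7 columns, and Prpf39 and Prpf40b run the other way.

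Split by family, each of the 4 sums was lower in Fraction 7 than in LZ with no overlap of libraries. The hnRNP sum was 3497 ± 17.6 FPKM in LZ (SD, n = 3) and 1823 ± 142 in Fraction 7 (SD, n = 3). The SR sum was 1289 ± 25.6 FPKM in LZ and 796 ± 20.1 in Fraction 7, and the SF3A and SF3B sum was 602 ± 26.5 and 370.3 ± 25.0 FPKM in the same gates. In proportion the PRPF sum moved least, from 382 ± 18.3 FPKM in LZ to 308 ± 18.6 in Fraction 7, with Fractions 5, 6 and 7 overlapping. Across the mean of all libraries the median gene stood at 140.9 FPKM among the hnRNPs, 82.5 among the SR proteins, 53.9 among the SF3 subunits and 18.4 among the PRPF proteins.

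**Figure D2:**
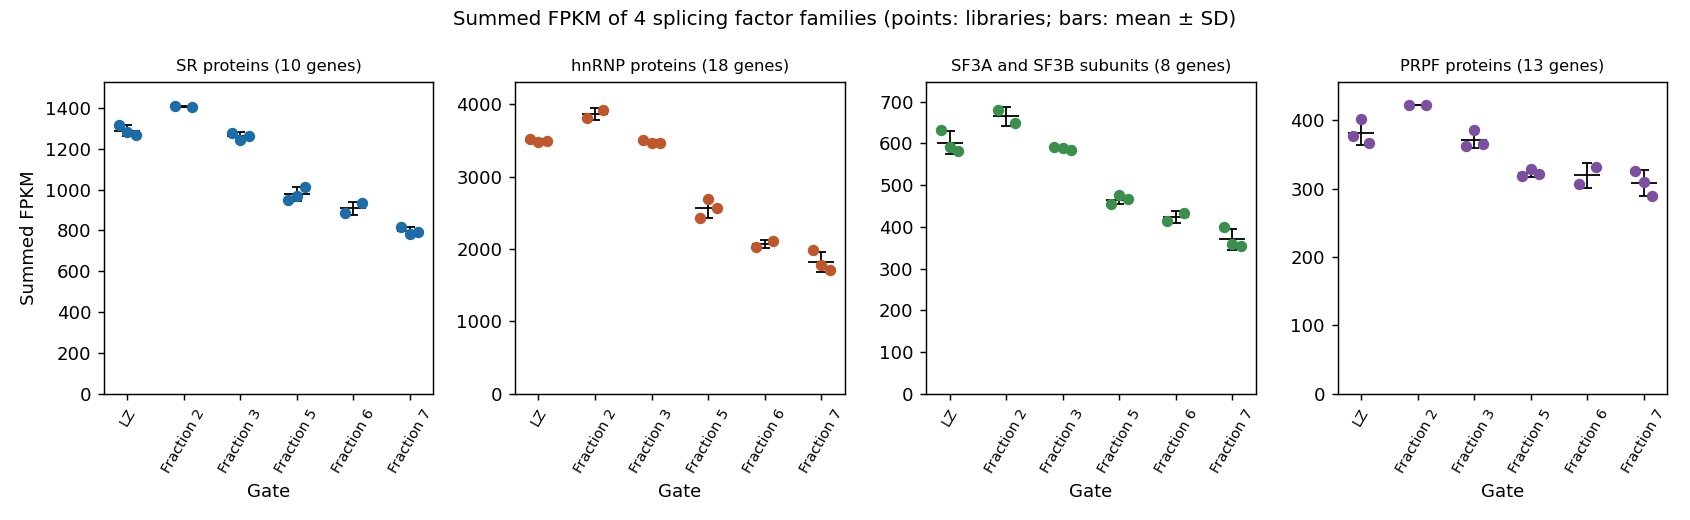
Summed FPKM of each family (vertical axes start at 0) by gate; points are libraries and bars are the mean with its SD. The SR, hnRNP and SF3 sums step down from the germinal centre gates to Fraction 7, where the hnRNP sum is 1823 FPKM against 3497 in LZ, and the PRPF sum has the shallowest slope.

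Some other facts of the libraries moved along with these sums and others did not. The sum of all FPKM ranged from 416741 to 492578 per library and was lowest in Fraction 7 libraries 2 and 3. Relative depth, read from the size of 1 fragment in low values, ranged from 0.920 to 1.21 of LZ library 1, and total depth is unknown. All 5 B cell markers were at 1 FPKM or more in every gate. Their sum was lowest in Fraction 2 (2273.5 and 2359 FPKM) and highest in Fraction 6 (4034 and 4174). The germinal centre list (7 genes) summed to between 724 and 983 FPKM in every LZ, Fraction 2, Fraction 3 and Fraction 5 library. It includes Bcl6, whose reporter was used to sort the gates other than LZ. The same list summed to 330.1 and 351 in the Fraction 6 libraries and to between 67.3 and 91.6 in those of Fraction 7. The proliferation list (Mki67, Top2a, Mcm2, Mcm5, Pcna and Ccnb1) summed to 1029 and 1096 FPKM in the Fraction 2 libraries, between 866 and 930 in those of Fraction 3 and between 828 and 877 in those of LZ. Lower down, Fraction 5 held between 387 and 524, Fraction 6 held 153 and 163, and Fraction 7 between 99.2 and 113. This is the order of gates of the splicing factor sums apart from Fraction 3 reaching above LZ, and the part of proliferation in the results was not tested. Fraction 7 libraries 2 and 3 held the plasma cell gene Sdc1 at 4.44 and 4.51 FPKM, against at most 0.534 in the other libraries. Igj (296 and 292 FPKM) and Xbp1 (84.9 and 81.3) were also highest in these libraries. Irf4, Prdm1 and Tnfrsf17 were higher in every Fraction 7 library than in any other library, while Slamf7 (18.4, 15.6 and 16.7 FPKM) was not. The plasma cell list (7 genes, each at 1 FPKM or more in at least 1 Fraction 7 library) summed to 124 to 426 FPKM in Fraction 7 and to 83.4 to 247 elsewhere. Results on Fraction 7 are therefore also given without its libraries 2 and 3. Myeloid markers summed to 15.4 to 45.8 FPKM in Fraction 7 and to 0.348 to 29.4 in the other gates. Much of the Fraction 7 sum was Itgam (12.8, 8.22 and 12.5 FPKM) and, in library 3, S100a8 (15.2) and S100a9 (13.4). These 2 reached 13.3 and 12.9 FPKM in Fraction 3 library 3. Lyz2 and Emr1 were at 1.08 to 3.34 FPKM in Fraction 7, Csf1r at most at 0.528 and Cd14 at 0. In bulk RNA, fewer cells of a type and less RNA per cell cannot be told apart.

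Promoters of members at the ends of the range are shown because members that move together can be compared for shared sequence. RefSeq promoter windows (build GRCm38.p6, 250 bases before the start, 5′ to 3′ on the strand of the gene) matched 45 of the 50 genes. Capitals mark CCAAT (the CCAAT box, or ATTGG where it lies on the other strand) and CCGGAAG (an ETS family site, or CTTCCGG). Srsf2, Hnrnpab and Sf3a3 had the widest range of gate means in their families, and Sf3b1 and Prpf38b the narrowest.
Srsf2, chr11:116853095-116853344, minus strand: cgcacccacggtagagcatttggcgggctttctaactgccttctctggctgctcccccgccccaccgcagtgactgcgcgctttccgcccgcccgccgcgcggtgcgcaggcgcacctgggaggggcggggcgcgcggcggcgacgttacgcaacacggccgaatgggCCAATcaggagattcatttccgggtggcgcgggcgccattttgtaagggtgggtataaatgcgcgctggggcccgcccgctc
Hnrnpab, chr11:51606882-51607131, minus strand: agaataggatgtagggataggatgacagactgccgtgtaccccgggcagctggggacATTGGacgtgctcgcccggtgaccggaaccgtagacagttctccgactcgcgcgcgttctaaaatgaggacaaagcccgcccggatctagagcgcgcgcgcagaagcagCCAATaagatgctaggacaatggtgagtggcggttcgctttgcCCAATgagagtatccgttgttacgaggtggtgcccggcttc
Sf3a3, chr4:124714611-124714860, plus strand: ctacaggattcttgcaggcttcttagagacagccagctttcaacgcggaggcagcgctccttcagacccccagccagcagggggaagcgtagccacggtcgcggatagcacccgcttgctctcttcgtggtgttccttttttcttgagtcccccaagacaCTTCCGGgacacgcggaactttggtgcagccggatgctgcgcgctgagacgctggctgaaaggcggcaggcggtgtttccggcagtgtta
Sf3b1, chr1:55027479-55027728, minus strand: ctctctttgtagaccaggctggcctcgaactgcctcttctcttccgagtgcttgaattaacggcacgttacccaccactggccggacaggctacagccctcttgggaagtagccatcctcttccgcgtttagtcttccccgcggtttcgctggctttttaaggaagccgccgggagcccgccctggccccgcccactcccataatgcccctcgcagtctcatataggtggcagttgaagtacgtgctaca
Prpf38b, chr3:108911730-108911979, minus strand: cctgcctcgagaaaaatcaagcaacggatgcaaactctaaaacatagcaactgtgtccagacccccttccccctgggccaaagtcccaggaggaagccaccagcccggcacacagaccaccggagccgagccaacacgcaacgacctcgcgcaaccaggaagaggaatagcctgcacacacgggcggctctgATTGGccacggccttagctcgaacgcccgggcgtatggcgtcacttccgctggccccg

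Srsf2 held 1 CCAAT, 82 bases before the start, and Hnrnpab held 3, the closest at 41 bases. Sf3a3 held the ETS letters at 90 bases, and Prpf19, widest among the PRPF proteins, held them at 68 bases and a CCAAT at 53. Of the narrowest, Sf3b1 held none of the searched letters, Prpf38b held a CCAAT at 58 bases and Srsf11 the ETS letters at 104, so neither motif was limited to the wide-range genes. Prpf19 and Srsf11 have 2 starts, and these positions are from 1 of them, whereas the shares below count a gene if any of its windows held the letters. On both strands, CCAAT was present in 53.33% of the 45 genes and in 37.49% of the 27025 genes in the table. CCGGAAG was present in 31.11% of the member genes and in 7.83% of all genes, CACGTG (an E-box) in 13.33% and 6.86%, and GCATGC (the core of the NRF1 motif) in 13.33% and 7.62%. The motifs do not overlap one another in their letters. The 27025 genes are all those with a window, expressed here or not, and are not the 11266 tested genes. Neither base composition nor expression was matched between members and all genes, and a match describes letters in the window only.

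Among the SR proteins, Srsf2 (SC35), which binds exonic enhancers, changed over the widest range. Srsf2 stood at 271, 244 and 247 FPKM in LZ, 284 and 293 in Fraction 2, 245, 230.3 and 229.8 in Fraction 3, 130.4, 131 and 138 in Fraction 5, 108 and 111 in Fraction 6 and 80.4, 80.3 and 83.2 in Fraction 7. Every Fraction 7 library lay below every Fraction 6 library, these below every Fraction 5 library, and these below the 8 germinal centre libraries. Srsf3, the smallest SR protein and an adaptor for mRNA export, stood at 169, 172 and 166 FPKM in LZ, 191 and 198 in Fraction 2, 180.2, 172 and 178 in Fraction 3, 108, 125 and 111 in Fraction 5, 81.3 and 90.8 in Fraction 6 and 69.6, 69.6 and 64.6 in Fraction 7. Srsf1 (SF2/ASF), the founding SR protein, stood at 97.8, 97.6 and 95.4 FPKM in LZ, 115 and 117 in Fraction 2, 95.1, 96.8 and 94.0 in Fraction 3, 68.6, 75.7 and 72.0 in Fraction 5, 53.6 and 56.5 in Fraction 6 and 40.2, 42.03 and 39.1 in Fraction 7. Both descended from Fraction 2 through Fractions 3, 5 and 6 to Fraction 7. Fraction 2 lay above all other gates, and Fractions 5, 6 and 7 did not overlap. LZ overlapped with Fraction 3, with a mean above it for Srsf1 (96.9 and 95.3 FPKM) and below it for Srsf3 (169 and 177 FPKM).

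Not all SR proteins followed. Srsf5, the most abundant of them, stood at 232, 233 and 232 FPKM in LZ, 220.1 and 229 in Fraction 2, 228, 231 and 239 in Fraction 3, 248, 219.5 and 267 in Fraction 5, 264 and 271 in Fraction 6 and 267, 248 and 255 in Fraction 7. Its Fraction 5 libraries overlapped with the germinal centre gates, and its Fraction 6 and Fraction 7 libraries lay slightly above them. Srsf6, another exon-binding SR protein, stood at 87.1, 88.9 and 82.6 FPKM in LZ, 107 and 94.95 in Fraction 2, 80.2, 79.3 and 76.1 in Fraction 3, 56.6, 67.0 and 65.5 in Fraction 5, 62.6 and 66.1 in Fraction 6 and 69.1, 60.7 and 66.8 in Fraction 7. Its Fraction 5, 6 and 7 libraries overlapped and all lay below the germinal centre libraries. Srsf11 (p54) had the narrowest range of the family, with all 16 libraries between 69.6 and 86.6 FPKM.

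Among the hnRNPs, Hnrnpab, an RNA binding protein related to Hnrnpd, changed most. Hnrnpab stood at 310.4, 291 and 297 FPKM in LZ, 363 and 379 in Fraction 2, 288, 278 and 273 in Fraction 3, 137, 172 and 156 in Fraction 5, 107 and 116 in Fraction 6 and 91.4, 81.1 and 74.1 in Fraction 7. The Fraction 2 libraries were the highest, and the gates from Fraction 3 to Fraction 7 formed 4 levels that did not overlap. Hnrnpa2b1, a repressor of exon inclusion and the most abundant member of all 49, stood at 611, 615 and 614 FPKM in LZ, 653 and 698 in Fraction 2, 656, 609 and 593 in Fraction 3, 449, 464 and 439 in Fraction 5, 327 and 332 in Fraction 6 and 270.0, 275 and 257 in Fraction 7. Hnrnpd (AUF1), which binds AU-rich elements and takes part in mRNA decay, stood at 64.4, 64.5 and 61.2 FPKM in LZ, 63.1 and 72.6 in Fraction 2, 66.1, 64.6 and 65.1 in Fraction 3, 38.0, 42.4 and 40.3 in Fraction 5, 29.1 and 31.8 in Fraction 6 and 26.8, 25.1 and 23.9 in Fraction 7. For both, LZ, Fraction 2 and Fraction 3 lay together at the top and Fractions 5, 6 and 7 formed separate lower levels.

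Hnrnpa1, which antagonises SR proteins at exons, stood at 76.6, 98.5 and 101 FPKM in LZ, 116 and 135 in Fraction 2, 56.1, 91.7 and 88.7 in Fraction 3, 62.1, 68.2 and 68.7 in Fraction 5, 53.6 and 54.5 in Fraction 6 and 45.7, 45.3 and 40.4 in Fraction 7. Its Fraction 3 library 1 lay below all Fraction 5 libraries, apart from the other 2 of its gate. Hnrnpa1 and Hnrnpa3 have many near-identical processed pseudogenes, so their levels are uncertain where reads were shared. Hnrnpul2, a relative of the scaffold protein Hnrnpu, had the narrowest range of the family and stood at 72.9, 72.9 and 76.1 FPKM in LZ, 69.7 and 74.0 in Fraction 2, 78.3, 78.4 and 78.3 in Fraction 3, 65.1, 71.4 and 67.0 in Fraction 5, 56.6 and 61.3 in Fraction 6 and 63.5, 53.4 and 48.2 in Fraction 7. Its Fraction 6 and Fraction 7 libraries overlapped, and both lay below every germinal centre library.

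Among the SF3 subunits, Sf3a3 (SF3a60) had the widest range and stood at 56.7, 69.4 and 61.7 FPKM in LZ, 65.7 and 79.8 in Fraction 2, 60.3, 62.4 and 56.5 in Fraction 3, 38.7, 40.4 and 41.0 in Fraction 5, 29.0 and 30.6 in Fraction 6 and 26.3, 22.3 and 27.8 in Fraction 7. Fraction 5 lay below every germinal centre library and above every Fraction 6 and Fraction 7 library. Sf3b1, the largest SF3B subunit, which contacts the branch point, was the most abundant SF3 gene and stood at 106, 109 and 109 FPKM in LZ, 101 and 99.7 in Fraction 2, 107, 111 and 114 in Fraction 3, 111, 113 and 113 in Fraction 5, 123 and 131 in Fraction 6 and 112, 114 and 105 in Fraction 7. Its Fraction 7 libraries overlapped with LZ and Fraction 3, and its Fraction 6 libraries were the highest. Sf3b3, a scaffold subunit of SF3B, stood at 72.4, 71.0 and 63.9 FPKM in LZ, 86.7 and 82.1 in Fraction 2, 66.3, 66.9 and 65.4 in Fraction 3, 41.4, 47.2 and 42.9 in Fraction 5, 38.9 and 40.6 in Fraction 6 and 43.3, 39.3 and 37.5 in Fraction 7. Its Fraction 7 libraries overlapped with those of Fractions 5 and 6, and all of these lay below the germinal centre gates.

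Among the PRPF proteins, Prpf19, the ubiquitin ligase that names the Prp19 complex, had the widest range and stood at 21.4, 20.3 and 20.8 FPKM in LZ, 27.1 and 27.8 in Fraction 2, 21.4, 19.7 and 20.0 in Fraction 3, 10.8, 11.8 and 11.1 in Fraction 5, 10.5 and 11.9 in Fraction 6 and 11.7, 10.1 and 9.67 in Fraction 7. The germinal centre libraries all lay above the CD38+ libraries, whose 3 gates overlapped. Prpf39 and Prpf40b, relatives of yeast proteins of the U1 snRNP, went the opposite way. Prpf39 stood at 14.03, 15.2 and 12.7 FPKM in LZ, 16.002 and 15.8 in Fraction 2, 12.5, 13.9 and 13.4 in Fraction 3, 15.4, 14.3 and 17.1 in Fraction 5, 18.6 and 19.6 in Fraction 6 and 20.3, 23.3 and 21.2 in Fraction 7. Prpf40b, at the low end of detection, stood at 1.04, 0.571 and 0.893 FPKM in LZ, 0.806 and 1.01 in Fraction 2, 0.578, 1.16 and 0.208 in Fraction 3, 0.893, 0.761 and 0.627 in Fraction 5, 1.52 and 1.37 in Fraction 6 and 2.47, 2.097 and 1.93 in Fraction 7. For both genes, all Fraction 6 and Fraction 7 libraries lay above all libraries of the other gates.

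**Figure D3:**
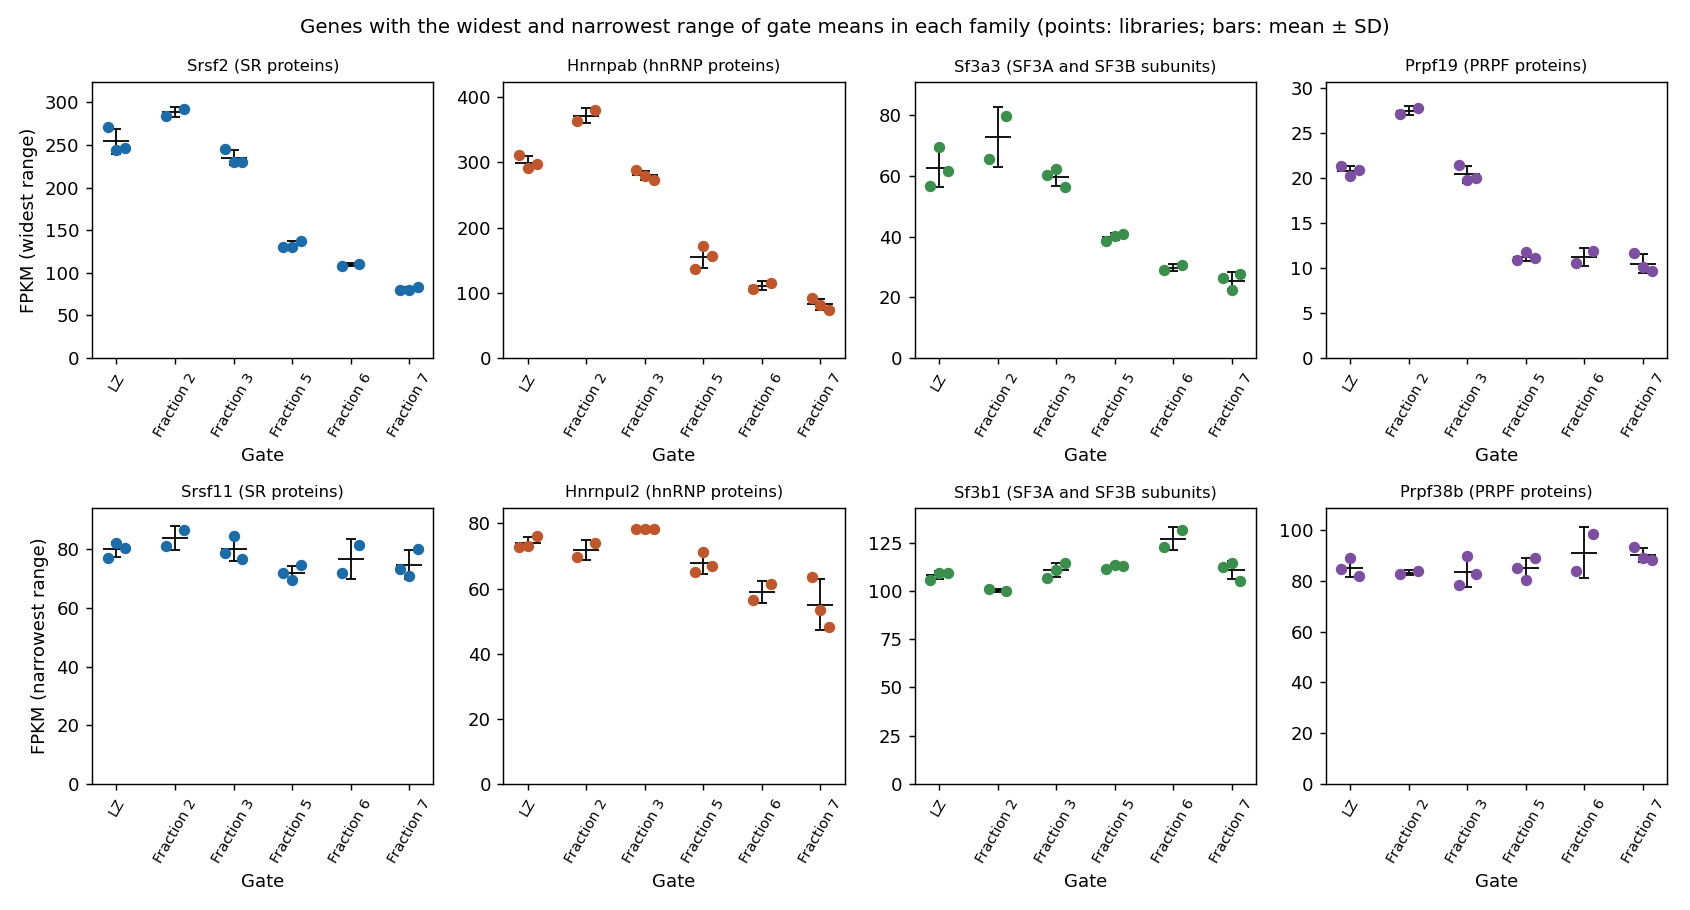
FPKM by gate (vertical axes start at 0) for the gene with the widest range of gate means in each family (top) and the one with the narrowest (bottom); points are libraries and bars are the mean with its SD. Srsf2, Hnrnpab, Sf3a3 and Prpf19 step down from Fraction 2, whereas Srsf11, Sf3b1 and Prpf38b vary least across the gates and Hnrnpul2 goes down least among the hnRNPs.

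The first comparison set CD69hi cells against CD69lo cells of the light zone, Fraction 2 against Fraction 3, and 11 of the 49 genes rose in Fraction 2 while 0 fell. Changes are differences of mean log2(FPKM + 1), which understates low genes, and a gene passed at an adjusted p under 0.05 in limma, with Benjamini-Hochberg adjustment over all 11266 genes. Of all genes tested 15.6% passed, 9.17% upward and 6.45% downward. Under quantile normalization the order of these shares turned (7.69% upward and 9.24% downward), and 12 members were higher and 1 lower; the lower one was Sf3b1 (-0.21, adjusted p = 0.0166), which also passed as lower under median-ratio scaling (-0.18, adjusted p = 0.0248). The median change was 0.16 for the splicing factor genes and 0.04 for all genes, and 30 members had both Fraction 2 libraries above all Fraction 3 libraries, as did 28.7% of all genes, and 3 had both below, as did 19.4%.

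The genes that rose came from all 4 families: Srsf1, Srsf2, Srsf6 and Srsf7 (an SR protein with a zinc knuckle), Hnrnpa1 and Hnrnpab, Sf3a2 (SF3a66) and Sf3b3, and Prpf8 (the central scaffold of the spliceosome), Prpf19 and Prpf31 (which holds U4/U6 to U5). Hnrnpa1 was at 126 ± 13.4 (SD, n = 2) FPKM in Fraction 2 and 78.8 ± 19.8 (SD, n = 3) in Fraction 3, a change of 0.69 (SE 0.175, limma adjusted p = 0.0184), and both Fraction 2 libraries lay above all 3 of Fraction 3. Prpf31 stood at 29.3 and 22.7 FPKM in Fraction 2 and 18.0, 18.4 and 15.9 in Fraction 3 and rose by 0.54 (SE 0.104, limma adjusted p = 0.00474). Its Fraction 2 libraries differed from each other by more than its Fraction 3 libraries did, but both were above them. Prpf19 rose by 0.41 (limma adjusted p = 0.00617) and Hnrnpab by 0.41 (adjusted p = 0.0133). Srsf6 rose by 0.36 and Sf3b3 by 0.34, with limma adjusted p = 0.0128 and 0.0112. None of the 11 calls held in every fit that left out 1 library: 3 passed without Fraction 2 library 1, 3 without Fraction 2 library 2, and up to 9 without a Fraction 3 library. Hnrnpa1, Prpf31, Sf3a2 and Srsf7 also missed the threshold when the 2 gates were fitted alone (limma adjusted p = 0.129, 0.065, 0.0529 and 0.0529).

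Fraction 5 against Fraction 3 compares cells that were CD38+ and still Bcl6-YFPhi, labelled pro-memory, with CD69lo light zone cells. In Fraction 5, 36 members fell and 0 rose, where 29.5% of all genes passed, 19.5% downward and 9.99% upward. The median change was -0.37 for the members and -0.03 for all genes. By family, 14 of 18 hnRNPs, 8 of 10 SR proteins, 7 of 8 SF3 subunits and 7 of 13 PRPF proteins fell. With quantile normalization the split was 4 higher (Sf3b1, Srsf5, Prpf38b and Prpf39) and 22 lower, where all genes split evenly, with 14.9% upward and 14.8% downward. The germinal centre marker sums lay close to each other in these gates (842 to 857 FPKM in Fraction 5, 862 to 983 in Fraction 3), while the proliferation sum was 387 to 524 against 866 to 930. Both gates were sorted as Bcl6-YFPhi, and Bcl6 is part of the germinal centre sum.

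Hnrnpab was at 155 ± 17.4 (SD, n = 3) FPKM in Fraction 5 and 279.6 ± 7.62 (SD, n = 3) in Fraction 3 and fell by 0.85 (SE 0.0860, limma adjusted p = 1.81e-05). Srsf2 fell by 0.82 (SE 0.0543, limma adjusted p = 1.57e-06), from 235 ± 8.64 to 133 ± 4.19 FPKM. Prpf19 fell by 0.80, from 20.4 ± 0.915 to 11.2 ± 0.465 FPKM (limma adjusted p = 1.14e-05). For these 3 genes and for Hnrnpd (-0.69), Srsf3 (-0.62), Sf3b3 (-0.59) and Sf3a3 (-0.57), no Fraction 5 library reached the Fraction 3 range. Sf3b1 changed by 0.02 (95% interval -0.09 to 0.13, limma adjusted p = 0.762), and by 0.18 under quantile normalization (adjusted p = 0.00965). Hnrnpa1 did not pass (-0.21, limma adjusted p = 0.337), but did without the low Fraction 3 library 1 (-0.44, adjusted p = 0.0146). Of the 36 calls, 27 held in every fit that left out 1 library, those named as falling here included.

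In Fraction 5 against CD69hi cells, Fraction 5 against Fraction 2, 38 members fell and 1 rose, where 43.7% of all genes passed, 27.1% downward and 16.6% upward. Under quantile normalization 34 fell and 3 rose, where 22.0% of all genes passed downward and 24.1% upward. The median was -0.56 for the members and -0.04 for all genes. This comparison shares the Fraction 5 libraries with the one before. Hnrnpab fell by 1.26 (SE 0.0961, limma adjusted p = 5.69e-07), Prpf19 by 1.22 (SE 0.0843, adjusted p = 3.54e-07) and Srsf2 by 1.11 (SE 0.0607, adjusted p = 1.72e-07), the 3 members that changed by over 2-fold, as 8.57% of all genes did; Srsf2 stayed under 2-fold with quantile normalization. Sf3b3 (-0.93), Hnrnpa1 (-0.91) and Prpf31 (-0.91) were next. Sf3b1 was the member that rose, by 0.17 (SE 0.0571, limma adjusted p = 0.0302), from 101 and 99.7 FPKM in Fraction 2 to 111, 113 and 113 in Fraction 5. The Sf3b1 libraries of the 2 gates did not overlap, but the call was lost in each fit that left out 1 library (limma adjusted p from 0.0519 to 0.133) and when the gates were fitted alone (0.0502). The fall of Srsf11, -0.22 with limma adjusted p = 0.0312, became 0.02 under quantile normalization.

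From pro-memory to pre-memory cells, Fraction 6 against Fraction 5, 13 members fell and 0 rose, where 17.5% of all genes passed, 10.4% downward and 7.07% upward. The median was -0.21 for the members and 0 for all genes. In 31 members both Fraction 6 libraries lay below all of Fraction 5, as in 24.9% of all genes, and in 4 both lay above, as in 23.0%. The falls were in 8 of 18 hnRNPs, 3 of 10 SR proteins and 2 of 8 SF3 subunits, with 0 of 13 PRPF proteins past the threshold; a difference between families was not tested. With quantile normalization the split was 2 higher (Sf3b1 and Prpf39) and 11 lower, where 9.39% of all genes passed upward and 10.7% downward. Over this step the germinal centre sum went from 842 to 857 FPKM down to 330.1 and 351. That sum includes Bcl6, whose reporter was sorted high in Fraction 5 and low in Fraction 6.

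Hnrnpa2b1 fell by 0.45 (SE 0.0615, limma adjusted p = 0.000172), from 450.5 ± 12.9 FPKM (SD, n = 3) to 329.8 ± 3.49 (SD, n = 2). Srsf1 fell by 0.38 (SE 0.0581, adjusted p = 0.000390), Srsf3 by 0.41 (adjusted p = 0.00141), Hnrnpd by 0.39 (adjusted p = 0.00268) and Hnrnpm, which binds GU-rich RNA, by 0.32 (adjusted p = 0.00287). These 5 calls held whichever library was left out. Hnrnpab (-0.47, limma adjusted p = 0.00359) missed without Fraction 6 library 1 (0.0535), and Sf3a3 (-0.41, adjusted p = 0.0160) missed without either Fraction 6 library (0.126 and 0.0611). The count was 5 without Fraction 6 library 1 and 8 without Fraction 6 library 2. Prpf19, which was lower in Fraction 5 than in Fraction 3, changed by -0.005 (95% interval -0.19 to 0.18).

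From pre-memory to mature memory cells, Fraction 7 against Fraction 6, 14 members fell and 0 rose, where 21.2% of all genes passed, 13.9% downward and 7.37% upward. The median was -0.18 for the members and -0.05 for all genes. The falls were in 6 hnRNPs, 5 SR proteins and 3 SF3 subunits, and again 0 PRPF proteins passed. Srsf1 fell by 0.44 (SE 0.0581, limma adjusted p = 0.000117), Srsf2 by 0.43 (SE 0.0607, adjusted p = 0.000208), Sf3a2 by 0.40 (adjusted p = 0.00309) and Hnrnpa2b1 by 0.30 (adjusted p = 0.00311). Sf3a2 stood at 38.6 and 39.8 FPKM in Fraction 6 and 31.5, 27.7 and 29.1 in Fraction 7, with no overlap. These 4 calls held whichever single library was left out. That of Hnrnpa2b1 was lost under quantile normalization (-0.19, adjusted p = 0.0966) and with the gates fitted alone (0.0817), and that of Sf3a2 without Fraction 7 libraries 2 and 3 (-0.31, adjusted p = 0.0787).

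Each of the other calls was lost without 1 library or another. Hnrnpab (-0.43, limma adjusted p = 0.00540), Srsf10, an SR-like protein that represses splicing when dephosphorylated (-0.37, adjusted p = 0.00671), and Srsf9 (-0.34, adjusted p = 0.0342) missed the threshold without Fraction 6 library 2 (0.0714, 0.068 and 0.217). The count of falls was 8 without Fraction 7 library 3 and 21 without Fraction 7 library 1, where 1161 and 1776 of 11266 genes fell. Fewer calls passed without Fraction 6 library 2, where the median was -0.13 for the members and -0.03 for all genes. Without Fraction 7 libraries 2 and 3, which carry the Sdc1 signal, fewer calls passed as well, with medians of -0.09 and 0.01. With the 2 gates fitted alone, 3 of the 49 members fell and 0 rose, where 753 of 11266 genes fell and 495 rose. Sf3b1 fell by 0.20 (limma adjusted p = 0.0245) but missed under quantile normalization (0.222), under median-ratio scaling (0.0929) and without Fraction 7 libraries 2 and 3 (0.122).

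Across the whole distance, mature memory cells against the light zone, Fraction 7 against LZ, 40 members fell and 2 rose, where 62.1% of all genes passed, 38.0% downward and 24.1% upward. The median was -0.82 for the members and -0.10 for all genes, and 12 members changed by over 2-fold, all downward, as did 18.4% of all genes, 11.1% downward. Over 2-fold counts depended on the scaling, with 7 members under median-ratio scaling and 2 under quantile normalization, where 8.92% and 8.68% of all genes were over 2-fold downward. In 40 members all Fraction 7 libraries lay below all LZ libraries, as in 38.9% of all genes, and in 3 all lay above, as in 25.5%. All 18 hnRNPs, 8 of 10 SR proteins, 7 of 8 SF3 subunits and 7 of 13 PRPF proteins fell. Under quantile normalization the split was 7 higher and 37 lower, and under median-ratio scaling 6 and 40, where all genes split evenly (30.7% upward and 30.8% downward, and 31.9% and 32.3%). Quantile normalization and median-ratio scaling each shifted the median of all genes by 0.12, and the member median relative to all genes was -0.72 as fitted, -0.49 and -0.69. Without Fraction 7 libraries 2 and 3 the split stayed 2 and 40, with a member median of -0.68.

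Hnrnpab was at 82.2 ± 8.70 (SD, n = 3) FPKM in Fraction 7 and 299 ± 10.1 (SD, n = 3) in LZ, a fall of 1.86 (SE 0.0860, limma adjusted p = 5.83e-10). Srsf2 was at 81.3 ± 1.63 (SD, n = 3) FPKM and 254 ± 14.7 (SD, n = 3) and fell by 1.63 (SE 0.0543, limma adjusted p = 4.32e-11). Srsf3 fell by 1.30 (adjusted p = 1.14e-09) and Srsf1 by 1.24 (adjusted p = 2.45e-10). Further falls of over 2-fold were in the hnRNPs Hnrnpd (-1.29), Hnrnpa2b1 (-1.20), Hnrnpa1 (-1.05) and Hnrnpa3 (-1.02). In SF3 they were in Sf3a3 (-1.27), Sf3a2 (-1.11), Sf3a1 (-1.03) and Sf3b4, an RNA-contacting SF3B subunit (-1.08). Under quantile normalization Hnrnpab and Srsf2 (-1.26) stayed past 2-fold, and the SF3A subunits were at -0.76 (Sf3a1), -0.77 (Sf3a2) and -0.95 (Sf3a3). Under median-ratio scaling Sf3a3 stayed past it, and Sf3a1 (-0.89) and Sf3a2 (-0.96) did not.

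Abundant hnRNPs of other binding preferences fell by under 2-fold. Hnrnpf, which binds runs of G, went from 444 ± 2.97 to 249 ± 22.8 FPKM (-0.83, limma adjusted p = 3.3e-07). Hnrnpk, which binds C-rich RNA, fell by 0.83, Hnrnpl, which binds CA repeats, by 0.87, and Hnrnpu, which also attaches chromatin, by 0.82. Of the SF3B subunits, Sf3b3 fell by 0.77, Sf3b5 by 0.85 and Sf3b2 by 0.65. Among PRPF proteins the tri-snRNP members Prpf3 (-0.94), Prpf31 (-0.91) and Prpf4 (-0.73) fell along with Prpf19 (-0.93) and Prpf38a, a member of the precatalytic spliceosome (-0.92). The fall of Prpf8, -0.38 (limma adjusted p = 0.000443), and that of Srsf6, -0.39 (adjusted p = 0.000458), turned to 0.02 and 0.02 under quantile normalization, and that of Hnrnpul2 (-0.43) no longer passed there (-0.04).

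The 2 members that rose were Prpf39, at 21.6 ± 1.52 (SD, n = 3) FPKM in Fraction 7 and 13.97 ± 1.24 (SD, n = 3) in LZ (0.59, SE 0.0838, limma adjusted p = 3.09e-05), and Prpf40b. Prpf40b was at 2.16 ± 0.274 (SD, n = 3) and 0.836 ± 0.241 (SD, n = 3) FPKM (0.79, SE 0.180, limma adjusted p = 0.00169). All 42 calls held whichever library was left out.

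The 7 members that did not pass were Srsf5, Srsf11, Sf3b1, Prpf38b, Prpf6 (a tri-snRNP bridge), Prpf4b (a kinase of the spliceosome) and Prpf18 (a factor of the second catalytic step). Srsf5 was at 257 ± 9.53 FPKM in Fraction 7 and 232 ± 0.337 in LZ, a difference of 0.14 (95% interval 0.003 to 0.28, limma adjusted p = 0.0708). The intervals were -0.08 to 0.14 for Sf3b1, -0.24 to 0.05 for Srsf11, -0.07 to 0.23 for Prpf38b and -0.32 to 0.09 for Prpf4b, so a difference of 2-fold lay outside each. Their level relative to other genes depended on the scaling. Under median-ratio scaling Sf3b1 (0.18), Prpf6 (0.22), Prpf38b (0.23) and Srsf5 (0.29) passed as higher in Fraction 7. Under quantile normalization the same 4 (0.42, 0.34, 0.47 and 0.51) and Srsf11 (0.32) did.

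**Figure D4:**
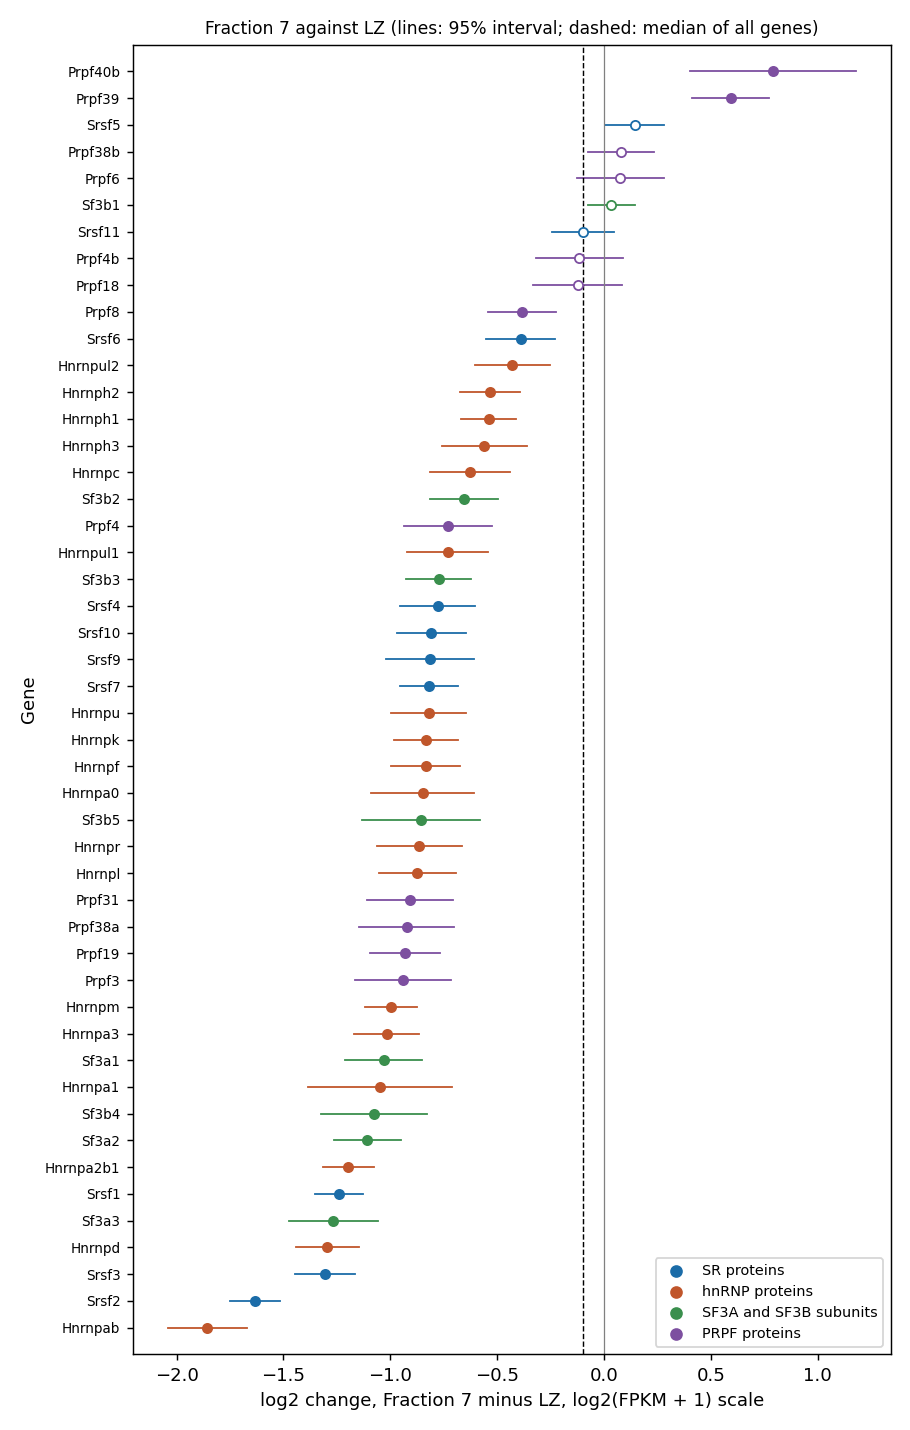
Each point is the log2 change of 1 gene, for 48 of the 49, between Fraction 7 and LZ on the log2(FPKM + 1) scale, with its 95% interval from limma; the dashed line is the median of all genes (-0.10). Hnrnpab (-1.86) and Srsf2 (-1.63) lie farthest to the left, and Prpf39 (0.59) and Prpf40b (0.79) are the members past the threshold to the right.

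**Figure D5:**
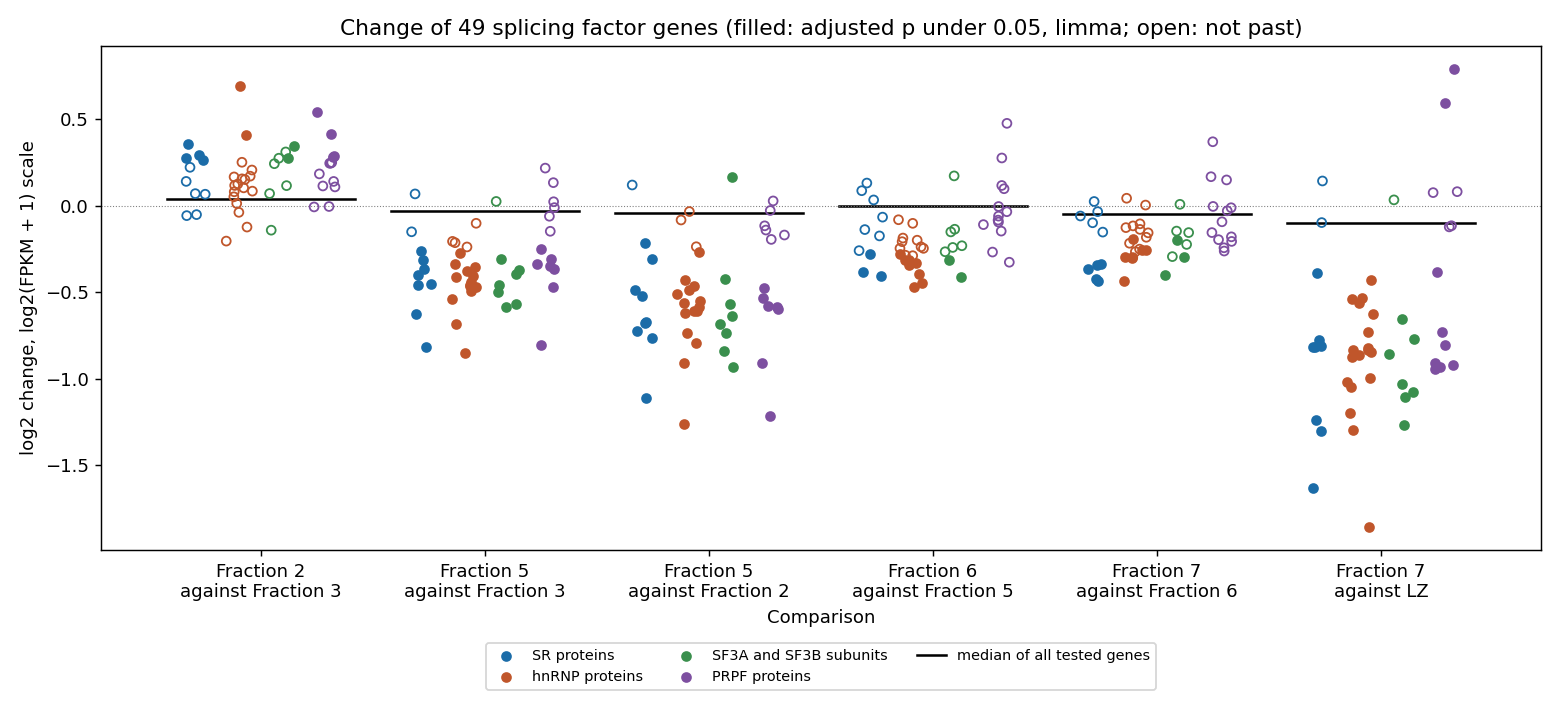
Log2 change of the 49 genes in each of the 6 comparisons, coloured by family, filled where the limma adjusted p was under 0.05; black bars are the median of all tested genes. Filled points lie above 0 in Fraction 2 against Fraction 3 and mostly below 0 elsewhere, with member medians from 0.16 to -0.82.

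Other splicing genes were counted in lists disjoint from the symbol rule. Of 114 listed genes 106 were tested. In Fraction 2 against Fraction 3, 20 rose and 1 fell (median 0.17), and in Fraction 5, 5 rose and 56 fell against Fraction 3 (median -0.26) and 6 rose and 78 fell against Fraction 2 (-0.46). In Fraction 6 against Fraction 5, 3 rose and 17 fell (-0.12), and in Fraction 7, 1 rose and 20 fell against Fraction 6 (-0.14), and 6 rose and 83 fell against LZ (-0.56). Of the 106, 78.3% fell in Fraction 7 against LZ, 52.8% in Fraction 5 against Fraction 3 and 73.6% in Fraction 5 against Fraction 2, where 38.0%, 19.5% and 27.1% of all genes fell, and 18.9% rose in Fraction 2 against Fraction 3, where 9.17% of all genes rose. In Fraction 6 against Fraction 5 the 20 of 106 that passed, and in Fraction 7 against Fraction 6 the 21 of 106, are near the shares of all genes that passed (17.5% and 21.2%), which also leaned downward. Under quantile normalization 11 rose and 38 fell in Fraction 5 when set against Fraction 3, 5 and 12 from there to Fraction 6, and 14 and 62 in the comparison with LZ. Fewer of the 106 passed in Fraction 2 against Fraction 3 when either Fraction 2 library was left out. Their medians were 0.175 without library 1 and 0.153 without library 2, where those of all genes were 0.049 and 0.038. Fewer also passed in Fraction 7 against Fraction 6 without Fraction 7 libraries 2 and 3, with medians of -0.05 and 0.01.

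The snRNP core, the Sm and LSm rings and snRNP-specific proteins, had the lowest median of the lists with several genes in Fraction 7 against LZ, -1.04, and 27 of its 28 genes fell. Snrpd1, an Sm ring protein, was at 22.5 ± 0.114 (SD, n = 3) FPKM in Fraction 7 and 94.2 ± 5.32 (SD, n = 3) in LZ (-2.02, limma adjusted p = 4.55e-09). Snrpa1, of the U2 snRNP in which SF3A and SF3B act, fell by 1.74 (adjusted p = 4.2e-09). Of 10 genes for the branch point and the 3′ splice site 8 fell, among them U2af1 (-1.55), U2af2 (-0.86) and Phf5a, the small subunit that sits beside Sf3b1 (-1.26). Zrsr1, a U2af1 relative that lies inside an intron of Commd1 on the other strand and whose reads are therefore uncertain, rose by 2.50 (adjusted p = 1.11e-08). Of 20 genes of the Prp19 complex and catalytic activation 16 fell (median -0.48), with Bud31 at -0.87 and Isy1 at -0.72.

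Among 38 splicing regulators 28 fell and 3 rose. Tra2b, an SR-related protein, fell by 1.31 (limma adjusted p = 7.15e-10) and Ptbp1, the polypyrimidine tract repressor, by 1.17 (adjusted p = 5.68e-09). The rises were in Mbnl2 (0.79), Rbm5 (0.51) and Srrm2 (0.36), the last a scaffold of nuclear speckles. Of 9 SR protein kinases and importers 2 rose and 3 fell, shares near those of all genes (24.1% upward and 38.0% downward). Clk1, which phosphorylates SR proteins in the nucleus, was at 134 ± 1.91 (SD, n = 3) FPKM in Fraction 7 and 77.0 ± 3.84 (SD, n = 3) in LZ and rose by 0.80 (SE 0.0657, limma adjusted p = 1.57e-07), and Clk4 rose by 0.58 (adjusted p = 3.68e-05). Tnpo3, which imports SR proteins, fell by 0.57 (adjusted p = 9.08e-06), and the kinase Srpk3 fell by 0.84 (adjusted p = 3.77e-06). Clk1 also rose in Fraction 5 against Fraction 3 (0.58, adjusted p = 3.75e-05) and in Fraction 6 against Fraction 5 (0.38, adjusted p = 0.00260). In Fraction 7 against LZ the genes named from these lists kept their direction and passed under both other scalings, except Hnrpdl, which fell by 0.55 (adjusted p = 9.93e-06) and did not pass under quantile normalization (-0.14, adjusted p = 0.0744). The other hnRNP gene under an older symbol, Hnrpll, was below the filter, at 0 to 0.310 FPKM.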

How the data were processed

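Messenger RNA was measured in 16 libraries of 6 sorted gates. Per the labels' protocols, RNA was extracted with TRIzol and libraries were made with a NEBNext Ultra kit, which does not mark strand, so reads of overlapping antisense genes cannot be told apart. The authors deposited FPKM values, and the submitters' processing notes name TopHat2 2.0.8, Cufflinks 2.1.1 and mm9 without their roles. FPKM are not counts, so no count test was used, and total depth is unknown. A row that names no gene (1 in all) was dropped, and 0 columns of other samples were present.

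Values of the 11266 genes that reached 1 FPKM in 2 or more libraries were set to log2(FPKM + 1) and fitted with limma 3.58.1 in R 4.3.3, with 1 mean for each gate over all 16 libraries and a trend of variance on mean expression. P-values were adjusted by Benjamini-Hochberg over all 11266 genes within each of 6 comparisons, with a threshold of 0.05. The fit was tested on simulated data. The log2 changes are computed here from the deposited values.

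Members and lists were chosen with earlier results of these data known. Of the members, 1 enters the fits and counts and is otherwise not reported here. Genes named are the largest rises and falls past the threshold, members over 2-fold, those with the highest mean and the widest and narrowest range in each family, a fixed panel, and up to 4 genes of each other list by smallest adjusted p. Members that counts of 5 or fewer turn on, the 7 that did not pass in Fraction 7 against LZ, the further SF3 and PRPF falls there, Hnrnpm, and the rises among the other lists were named after their values were seen. Alternatives were quantile normalization, median-ratio scaling, another pseudocount, other filters, a replicate block, the 2 gates fitted alone, and leaving out each library. Motifs were searched with Python 3.11.15 in RefSeq promoter windows of build GRCm38.p6, matched by symbol.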

Additional observations from a re-analysis of the deposited data

How the results depend on the processing

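For the splicing factor genes, the counts past the threshold when 1 library was left out ran from 3 to 9 in Fraction 2 against Fraction 3 (11 with all libraries), 27 to 36 in Fraction 5 against Fraction 3 (36), 35 to 38 in Fraction 5 against Fraction 2 (39), 5 to 14 in Fraction 6 against Fraction 5 (13), 4 to 21 in Fraction 7 against Fraction 6 (14) and 42 to 43 in Fraction 7 against LZ (42). For the other splicing genes they ran from 4 to 12 (21), 44 to 58 (61), 70 to 83 (84), 9 to 27 (20), 5 to 25 (21) and 88 to 90 (89) in the same order. In Fraction 7 against Fraction 6, 9 of the 49 members passed under quantile normalization, 9 under median-ratio scaling and 3 with the gates fitted alone. Of the 106 other splicing genes 14, 12 and 5 passed in these fits, and of all 11266 genes 2675, 2481 and 1248. Fits without Fraction 7 libraries 2 and 3 were chosen after seeing the data. There the median was -0.09 for the members, -0.05 for the other splicing genes and 0.01 for all genes. With the gates alone, 10 of the 106 other splicing genes passed in Fraction 6 against Fraction 5, as did 1415 of all 11266 genes. Fits that drop samples test with fewer libraries; the cause of the other changes was not tested. Where 1 library of a gate remained, it was assumed to vary like the other gates. Changes of sign were counted for members named by rule, where the value passed as fitted or in the alternative. Under quantile normalization 4 such values changed sign. They were Srsf11 to 0.02 in Fraction 5 against Fraction 2, and Srsf6 to 0.021, Srsf11 to 0.32 and Prpf8 to 0.017 in Fraction 7 against LZ. Values that passed in neither fit are not in this count, such as Prpf4b in Fraction 7 against LZ (-0.12 as fitted, 0.16 under quantile normalization), nor are other genes. Of the 42 calls in Fraction 7 against LZ, 39 held in all alternatives that rescaled, refiltered or blocked and still tested the gene. The same was true of 8 of 14 in Fraction 7 against Fraction 6. The 39 include Prpf40b, which the filter at 5 FPKM removed, so its rise was not tested there.

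Deviations from gate means had r from -0.136 to 0.125 in 14 pairs of same-numbered libraries of the gates compared. In 28 other pairs r ran from -0.147 to 0.147. Deviations within a gate cancel, so the 28 pairs are not independent of the 14. Whether the numbers pair the samples is therefore not settled here. With a replicate block the members past the threshold numbered 10, 37, 39, 15, 12 and 42 in the order above, and the other splicing genes 19, 65, 83, 24, 23 and 89.

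Without counts, the depth behind low genes such as Prpf40b is unknown, and gates of 2 libraries limit the comparisons that use them.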

Other observations

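In Fraction 6, library 2 was above library 1 in 41 of the 49 splicing factor genes and in 57.7% of all 11266 genes, and its sum of all FPKM was 470846 against 436809. In Fraction 7, library 1 held the highest value of 35 of the 49 (56.8% of all genes) and library 3 the lowest of 36 (49.5%), with sums of all FPKM of 457520 and 419401. In Fraction 5, library 1 held the lowest value of 32 (41.0% of all genes) and library 2 the highest of 32 (46.5%), with sums of 446599 and 468349. In LZ, libraries 1 and 2 each held the highest value of 22 of the 49 (37.0% and 33.8% of all genes). Fraction 3 libraries 1, 2 and 3 held the highest value of 18, 22 and 9 (25.9%, 33.7% and 40.4% of all genes). In Fraction 2 the libraries held 19 and 30 (50.1% and 49.9%). Mki67, a proliferation gene, was at 65.9, 96.6 and 67.2 FPKM in Fraction 5 libraries 1, 2 and 3. The part of these sums and of proliferation in the spread was not tested.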
